A study of Rattus norvegicus with 20 samples.

Results

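The genes described here are 8 genes of cholesterol synthesis and its feedback control, namely Hmgcs1, Idi1, Fdps, Fdft1, Sqle, Cyp51, Dhcr7 and Insig1, measured in visceral white adipose tissue of calorie-restricted (CR) rats. They were chosen by name from the array's annotation, in the order of the pathway, with earlier results of these data known. How many of them passed a test is therefore a description and no independent support. Each gene was read from its probe set (a group of probes read together) of highest mean signal. Of the 8 genes, 7 had a probe set under their symbol and 6 of these passed the filter on low signals, out of 9520 tested probe sets that name 7113 genes. Hmgcs1, which makes the precursor of mevalonate, had no probe set under that symbol and was not analysed here. Sqle was below the filter and its values are given as a description. The set is called cholesterol synthesis and uptake, but none of the 8 genes encodes an uptake receptor, and uptake genes are given below from a list of their own.

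Male Wistar rats, an outbred laboratory strain, were bought at 5 weeks of age, started the feeding at 6 weeks of age, were housed singly and received AIN-93G powdered diet. Control rats received the full daily intake recorded under ad libitum feeding, and 5%, 10%, 20% and 30% CR rats received correspondingly less of it, for 1 week or for 1 month. All rats were fasted for 16 h and anaesthetised with ether before the fat was taken. RNA of 5 rats was pooled in each of the 10 groups and each pool was put on 2 chips, so a group was 1 pool and the chips were technical repeats. The p-values measure only the spread of pools about each fitted model. With 1 pool per group, variation between pools and departure from the model cannot be told apart in it.

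Cholesterol is built from acetyl-CoA through mevalonate, isoprenoid units, squalene and sterol intermediates. When sterols in the endoplasmic reticulum are low, SCAP carries the transcription factor SREBP-2 to the Golgi, where proteases release its active part and the genes of the pathway are transcribed. When sterols are high, INSIG proteins hold SCAP back. White fat stores a large pool of free cholesterol in the lipid droplets of adipocytes.

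The adipocyte markers matched the tissue named in the labels. The mean log2 signal of the 7 adipocyte markers with a probe set (of 10 listed) was between 9.55 and 10.2 in every pool, and was lowest in the control pool at each duration, at 9.70 at 1 month and 9.55 at 1 week. The pools also differed in the signal of other cells. The mean log2 signal of 9 lymphocyte markers (of 12 listed) ranged between 3.23 and 7.33 in the restricted pools, against 7.37 and 7.38 in the control pools, with Cd8a at a signal as low as 1.37. The mean of 12 exocrine pancreas markers (of 13 listed) stood apart at 1 week, at 6.59 for 30% CR and at 12.1 for the control, against 2.50 to 3.02 in the other 8 pools, where Prss2 lay as low as the floor of 1.

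The sequences before the transcription start are shown as a description. Several members are known as targets of SREBP-2, but the members did not all move in one direction below, and a part of SREBP-2 was not tested. RefSeq (assembly GRCr8) gave a promoter window for 6 of the 8 genes, all but Fdft1 and Sqle. The last 150 bases before the start are printed for the 3 genes that fell with restriction and for Fdps, with capitals marking matches, on either strand, to CCAAT (the box of NF-Y, read ATTGG on the other strand) and to the GC box GGGCGG (read CCGCCC on the other strand). The windows lie at chr17:66547525-66547674 (minus strand) for Idi1, chr2:176804817-176804966 (minus strand) for Fdps, chr4:30991543-30991692 (plus strand) for Cyp51 and chr1:208444284-208444433 (plus strand) for Dhcr7.
Idi1 promoter: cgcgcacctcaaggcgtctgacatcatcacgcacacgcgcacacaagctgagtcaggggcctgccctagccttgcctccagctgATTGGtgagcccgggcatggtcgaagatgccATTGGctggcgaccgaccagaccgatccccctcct
Fdps promoter: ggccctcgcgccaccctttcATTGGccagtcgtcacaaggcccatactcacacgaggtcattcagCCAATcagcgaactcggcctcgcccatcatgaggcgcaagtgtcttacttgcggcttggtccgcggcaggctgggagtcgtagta
Cyp51 promoter: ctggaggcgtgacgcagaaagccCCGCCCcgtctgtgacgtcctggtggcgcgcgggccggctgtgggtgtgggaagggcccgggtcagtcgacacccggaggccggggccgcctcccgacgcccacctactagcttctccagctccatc
Dhcr7 promoter: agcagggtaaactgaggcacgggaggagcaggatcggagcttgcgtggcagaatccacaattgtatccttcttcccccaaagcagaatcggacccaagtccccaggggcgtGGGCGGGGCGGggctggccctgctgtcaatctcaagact

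Over the 250 bases before the start, CCAAT was found on either strand in 4 of the 6 windows (Hmgcs1, Idi1, Fdps and Insig1), against 34.0% of 33469 promoters of the same table. Idi1 held 2 matches, which began 66 and 35 bases before the start, and Fdps held 2 matches, which began 130 and 85 bases before it. The GC box was found in 5 of the 6 windows, all but Idi1, against 30.5% of all promoters and 60.5% of the promoters of the tested genes. In Dhcr7 both of its GC boxes overlapped by 1 base. A sterol regulatory element written TCACNCCAC was found in 0 of the 6 windows and in 0.974% of all promoters, and the E-box CACGTG was found in Insig1 alone, against 5.59% of all promoters. A match is a stretch of letters and not a site of binding, and the absence of a match covers only these letters in this window.

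In the fit over both durations, the isomerase Idi1, the demethylase Cyp51 and the reductase Dhcr7 had falling slopes, while that of the squalene synthase Fdft1 rose. The dose slope (change in log2 signal per 10% of restriction, fitted over the 10 pools with the controls at 0) passed limma's test for these 4 of the 6 tested members, 1 rising and 3 falling, beside 9.4% of all 9520 tested probe sets (5.71% rising and 3.69% falling). Over all probe sets the split was 544 rising and 351 falling, and it was 574 and 146 after median centring of the chips. The median slope of the 6 members was -0.11, beside -0.011 for all tested probe sets. In a bulk tissue sample, fewer cells of a type and less RNA per cell cannot be told apart. With single pools left out, Fdft1 passed in 7 of 10 fits, Idi1 in 5, Dhcr7 in 3 and Cyp51 in 2. Without the 1-week control, the 1-week 30% CR or the 1-month control pool 0 members passed. The falls were not graded at both durations: at 1 month Idi1 and Cyp51 were lowest at 10% CR and Dhcr7 at 20% CR. In the 8 restricted pools alone 0 members passed.

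Idi1 encodes the enzyme that interconverts the isoprenoid units isopentenyl and dimethylallyl diphosphate. At 1 month its signal was 130.4 in the control pool and 90.9, 56.5, 66.0 and 70.8 in the 5%, 10%, 20% and 30% CR pools. At 1 week the signal was 124.5 in the control pool and 79.0, 80.3, 59.9 and 45.9 in the 5%, 10%, 20% and 30% CR pools. Every restricted pool was below the control pool of its duration, and at 1 week the most restricted pool was the lowest, whereas at 1 month the 10% CR pool was. The dose slope was -0.33 ± 0.081 (SE, n = 10 pools, limma adjusted p = 0.0291), which is a fitted fold of 0.499 at 30% CR.

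Fdps encodes the synthase that joins isoprenoid units into farnesyl diphosphate, the branch point toward sterols. At 1 month its signal was 424 in the control pool and 315, 233, 336 and 329 in the 5%, 10%, 20% and 30% CR pools, and at 1 week it was 440 in the control pool and 389, 333, 327 and 332 in the restricted pools of the same order. All 8 restricted pools were below their control, but beyond 5% CR the level did not follow the dose. The slope was -0.085 ± 0.062 and did not pass (limma adjusted p = 0.385).

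Fdft1 encodes squalene synthase, the first enzyme committed to sterols, and was the only tested member with a called rise. At 1 month its signal was 123 in the control pool and 149, 175, 156 and 176 in the 5%, 10%, 20% and 30% CR pools. At 1 week it was 115.0 in the control pool and 121, 141, 153 and 189 in the 5%, 10%, 20% and 30% CR pools. The level was higher at each step of restriction at 1 week, though not every step exceeded the spread between chips, and every restricted pool was above its control. The slope was 0.18 ± 0.041 (limma adjusted p = 0.0217), a fitted fold of 1.46 at 30% CR.

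Sqle encodes squalene epoxidase, which adds the oxygen that starts ring closure, and its probe set was dim. At 1 month the signal was 23.3 in the control pool and 14.7, 6.03, 8.98 and 2.69 in the 5%, 10%, 20% and 30% CR pools, and at 1 week it was 47.7 in the control pool and 20.4, 18.1, 19.1 and 12.0 in the restricted pools. All 8 restricted pools were below their control. Fitted without the filter, its slope was -0.69 ± 0.16 (limma adjusted p = 0.0323). Folds of so dim a probe set depend on the offset. With a pseudocount of 16, chosen after the values were seen, the slope was -0.30 (limma adjusted p = 0.0341). The restricted against control difference was -0.82 with that pseudocount (limma adjusted p = 0.0342) and -1.63 without it (limma adjusted p = 0.104).

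Cyp51 encodes the lanosterol demethylase, an early enzyme after ring closure. At 1 month its signal was 241 in the control pool and 187, 160.2, 164.4 and 164.4 in the 5%, 10%, 20% and 30% CR pools. At 1 week it was 232 in the control pool and 218, 195, 184 and 172 in the 5%, 10%, 20% and 30% CR pools. The signal was lower at each level of restriction at 1 week, by steps within the spread between chips, and was nearly level beyond 10% CR at 1 month. The slope was -0.14 ± 0.040 (limma adjusted p = 0.0456), a fitted fold of 0.741 at 30% CR.

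Dhcr7 encodes the reductase of the last step to cholesterol and had a slope of -0.36 ± 0.098 (limma adjusted p = 0.0440). At 1 month its signal was 250.2 in the control pool and 122, 118, 114 and 135 in the 5%, 10%, 20% and 30% CR pools, and at 1 week it was 262 in the control pool and 142, 150.05, 100.05 and 76.9 in the restricted pools. At 1 month the 8 chips of restricted pools read 111.1 to 139, against 270.4 and 231.5 on the control chips. The signal at 5% CR was already near its 1-month minimum, whereas at 1 week the 20% and 30% CR pools were lower than the 5% and 10% CR pools. Of all 9520 tested probe sets, 216 had a slope as low as or lower than that of Dhcr7, and 251 as low as or lower than that of Idi1.

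Insig1 encodes the protein of the endoplasmic reticulum that retains SCAP when sterols are present, and is itself a target of SREBP. At 1 month its signal was 1386 in the control pool and 1357, 1719.7, 1814 and 1849.5 in the 5%, 10%, 20% and 30% CR pools. At 1 week it was 1838 in the control pool and 1449.7, 1867, 1975 and 1915 in the 5%, 10%, 20% and 30% CR pools. The 5% CR pools were the lowest at both durations, though at 1 month within the spread between chips. The other 6 restricted pools were above their controls. The slope was 0.12 ± 0.041 and did not pass (limma adjusted p = 0.0904).

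**Figure D1:**
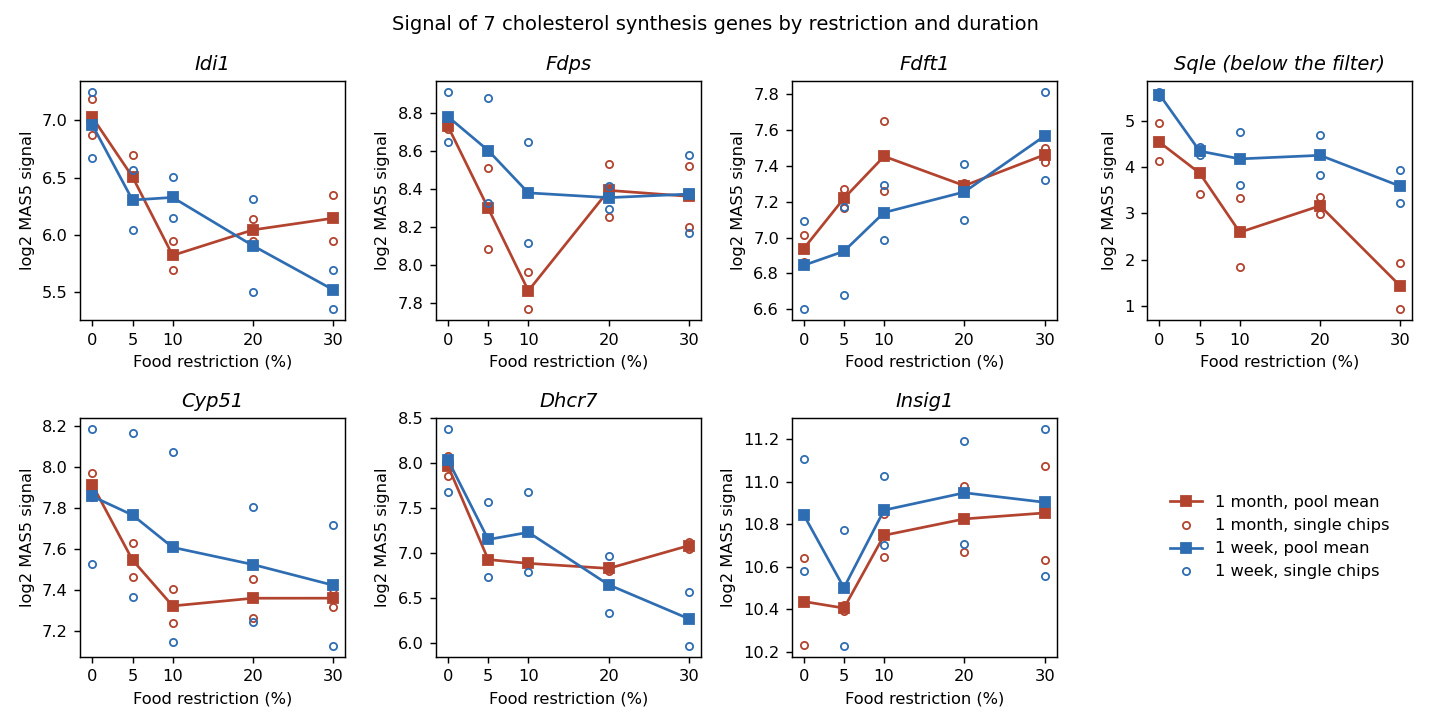
The log2 MAS5 signal (vertical axis) of the 7 measured genes is plotted against food restriction in percent (horizontal axis), with squares and lines for pool means and open circles for single chips, 1 month in red and 1 week in blue. Idi1, Fdps, Sqle, Cyp51 and Dhcr7 lay below the control in all 8 restricted pools, Fdft1 lay above it in all 8, and Insig1 lay above it in 6. The vertical scale differs between panels and levels of different probe sets are not comparable.

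The order of the pools was read against the spread between chips, taking neighbours within 2 standard deviations of a difference of pool means as not told apart. This limit covers the chips only and not the variation between pools of rats. For Idi1 this limit was 0.21 on the log2 scale, and it separated all neighbours but 20% and 30% CR at 1 month and 5% and 10% CR at 1 week. For Dhcr7 the limit was 0.17, and it separated the control pool from every restricted pool at both durations but did not separate the 4 restricted pools from their neighbours at 1 month. For Fdft1 the limit was 0.18, which left control and 5% CR and also 10% and 20% CR unseparated at 1 week, and all 4 restricted pools unseparated from their neighbours at 1 month. For Fdps the limit was 0.37 and for Cyp51 it was 0.22, and at 1 week no neighbours were separated for either gene. For the dim Sqle the limit was 1.06, which did not separate 5% CR from the control at 1 month. For Insig1 the limit was 0.30, which did not separate 5% CR from the control at 1 month or 10% CR from the control at 1 week. Neighbours among its 10%, 20% and 30% CR pools were not separated at either duration. The residual standard deviation between pools about the fitted line was 0.33 for Idi1 and 0.41 for Dhcr7, beside a median of 0.18 over the tested probe sets.

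Set against the controls as a group, the 8 restricted pools had less Dhcr7 and Idi1. Dhcr7 was lower by a log2 difference of -1.12 ± 0.20 (SE, 8 restricted and 2 control pools, limma adjusted p = 0.0157), a fold of 0.459. Idi1 differed by -0.92 ± 0.21 (limma adjusted p = 0.0312), a fold of 0.528. These were the 2 called of 6 tested members, both lower, beside 5.93% of all tested probe sets (1.6% lower and 4.34% higher). The differences of Cyp51 (-0.39 ± 0.11, limma adjusted p = 0.0508), Fdps (-0.43 ± 0.13, limma adjusted p = 0.0709), Fdft1 (0.40 ± 0.14, limma adjusted p = 0.0967) and Insig1 (0.12 ± 0.14, limma adjusted p = 0.612) did not pass. The members' median difference was -0.41, beside -0.026 for all tested probe sets. With single pools left out, Dhcr7 passed in 8 of 10 fits and Idi1 in 5, and without either control pool 0 members passed.

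Each restricted pool was also set against the control pool of its duration, with no test since each group was 1 pool. Idi1, Fdps, Cyp51, Dhcr7 and the untested Sqle were lower in all 8 restricted pools, beside 14.8% of the tested probe sets, and Fdft1 was higher in all 8, beside 15.1%. A change of at least 1.5-fold between pool means, with both chips in one direction, was reached by Dhcr7 and the untested Sqle in all 8 pools and by Idi1 in 7, the exception being 5% CR at 1 month, where Idi1 was 1.43-fold lower. At 5% CR, the mildest restriction, Dhcr7 was 2.06-fold lower at 1 month, where 3.33% of the tested probe sets were lower by this measure, and 1.85-fold lower at 1 week, where 4.35% were. Fdps (1.82-fold) and Cyp51 (1.504-fold) reached the limit in the 10% CR pool at 1 month alone, in which 13.7% of the tested probe sets were lower by this measure, more than in any other pool. The tested probe sets that were lower by this measure were 10.2% and 8.07% in the 20% and 30% CR pools at 1 month and 7.21%, 8.73% and 11.8% in the 10%, 20% and 30% CR pools at 1 week. Fdft1 reached it in the 30% CR pool at 1 week alone, at 1.65-fold higher, beside 9.38% of the tested probe sets.

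**Figure D2:**
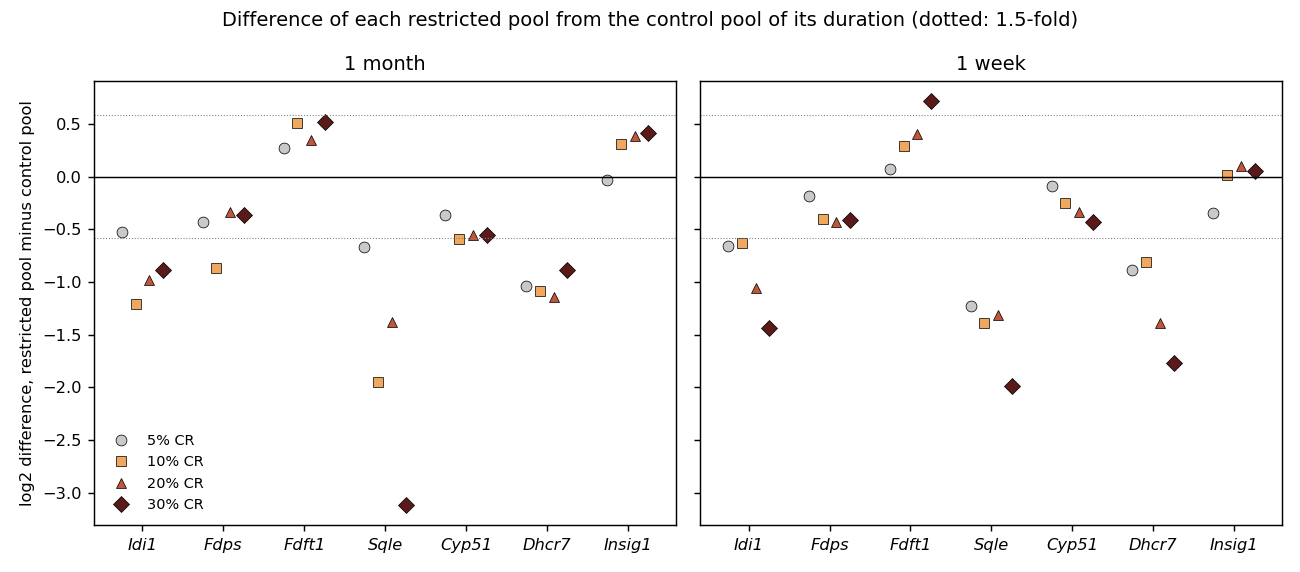
The log2 difference of each restricted pool from the control pool of its duration (vertical axis) is plotted for the 7 measured genes in pathway order (horizontal axis), 1 month in the left panel and 1 week in the right panel, with a marker for each level of CR and dotted lines at 1.5-fold. Dhcr7 and the dim Sqle lay beyond the lower dotted line in all 8 pools and Idi1 in 7.

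A step between control and any restriction was examined beside the slope. With the slope fitted over the restricted pools, the Dhcr7 controls lay 0.85 ± 0.22 above the line on the log2 scale and the Idi1 controls 0.59 ± 0.22 above it, but neither passed (limma adjusted p = 0.185 and 0.344). No member was called for such a step, beside 0.326% of the tested probe sets, and 4 of the 6 had an unadjusted p below 0.05, as had 11.3% of the tested probe sets. In the 8 restricted pools alone, the dose slopes of Dhcr7 (-0.17 ± 0.086, limma adjusted p = 0.464) and Idi1 (-0.20 ± 0.085, limma adjusted p = 0.367) did not pass.

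Within 1 duration no member passed limma's test, and the slope of each of the 6 tested members had the same sign at both durations. At 1 month the slopes were -0.24 for Idi1, -0.044 for Fdps, 0.13 for Fdft1, -0.15 for Cyp51, -0.20 for Dhcr7 and 0.16 for Insig1, with 0.126% of the tested probe sets called. An unadjusted p below 0.05 was reached by 3 of the 6 members and 13.2% of the tested probe sets. At 1 week they were -0.43 for Idi1, -0.13 for Fdps, 0.23 for Fdft1, -0.14 for Cyp51, -0.52 for Dhcr7 and 0.076 for Insig1, with 0.294% called. An unadjusted p below 0.05 was reached there by 4 members and 20.1% of the tested probe sets. The steeper fall of Dhcr7 at 1 week was not called as a difference of slopes (1 month minus 1 week, 0.33 ± 0.18, 95% interval -0.076 to 0.73, limma adjusted p = 0.999), and neither was that of Idi1 (0.18 ± 0.16, 95% interval -0.17 to 0.54, limma adjusted p = 0.999). For this difference limma called 0 members and 0% of the tested probe sets, with 0 members and 2.96% of the probe sets at an unadjusted p below 0.05. The mean level at 1 month against 1 week was called for 0 members, beside 4.96% of the tested probe sets, and depends on how the chips of each duration were scaled.

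The signal of other cell types moved with these genes. Over the 10 pools, each centred within its duration, the lymphocyte marker mean correlated with Idi1 at r = 0.84, with Cyp51 at 0.77, with Dhcr7 at 0.70 and with Fdft1 at -0.73 (Pearson, description only), and the adipocyte marker mean correlated with the same genes at -0.86, -0.84, -0.84 and 0.68. The mean of 4 macrophage markers (of 7 listed) was 7.15 to 7.41 in restricted pools, against 7.97 and 7.39 in the 1-month and 1-week control pools. It correlated at 0.84 with Cyp51, 0.76 with Dhcr7, 0.75 with Idi1 and -0.65 with Fdft1. These 4 markers did not move together: 1 dose slope was called rising and 1 falling, with a range of -0.40 to 0.16. The mean therefore does not stand for 1 course of macrophage signal, and its part was not tested. The 7 adipocyte markers did not move together either, with dose slopes between -0.21 and 0.30, 1 called rising and 0 falling. Their mean likewise does not stand for 1 course of adipocyte signal. With the lymphocyte mean as a covariate the slopes were -0.19 for Idi1, -0.097 for Cyp51, -0.25 for Dhcr7 and 0.14 for Fdft1, and 0 members passed. With the adipocyte mean as a covariate, chosen after the values were seen, Idi1 alone passed, and the slopes were 0.15 for Fdft1 (limma adjusted p = 0.0565), -0.22 for Dhcr7 (limma adjusted p = 0.0864) and -0.096 for Cyp51 (limma adjusted p = 0.118). Without the 2 pools of highest pancreas marker signal, the 1-week control and the 1-week 30% CR pool, the slopes were -0.25 for Idi1, -0.15 for Cyp51, -0.23 for Dhcr7 and 0.14 for Fdft1, and 0 members and 15 probe sets in all passed.

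**Figure D3:**
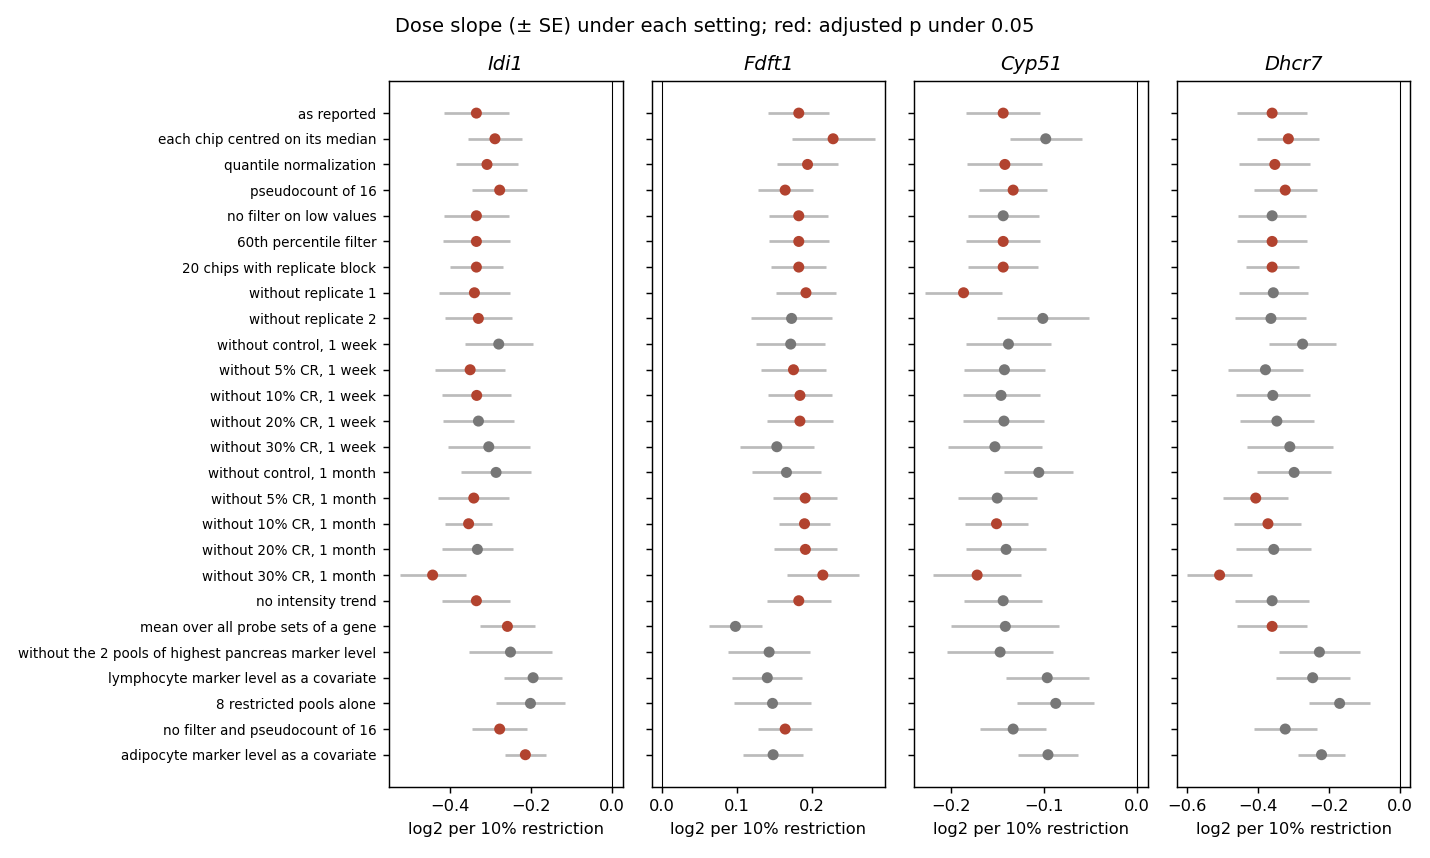
The dose slope in log2 signal per 10% restriction (horizontal axis, bars ± SE) of the 4 called genes is plotted under each setting (vertical axis), in red where the limma adjusted p was under 0.05. All slopes of Idi1, Cyp51 and Dhcr7 lay below 0 and all slopes of Fdft1 above 0. Idi1 ran between -0.44 and -0.19 and Fdft1 between 0.098 and 0.23.

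Second probe sets did not all follow the first. Idi1 had a dimmer probe set with a slope of -0.18 (limma adjusted p = 0.222) and a restricted against control difference of -0.034, and its correlation with the first probe set was 0.46 over the 10 pools. This probe set was lower than the control in all 4 restricted pools at 1 month but higher in 3 of 4 at 1 week, by 1.90-fold at 5% CR, so the count of 8 lower pools for Idi1 holds for its brighter probe set. The second Fdft1 probe set had a slope of 0.013 (limma adjusted p = 0.884) and a correlation of 0.045 with the first. The rise of Fdft1 therefore rested on 1 of its 2 probe sets. The second Cyp51 probe set had the same slope of -0.14 with a larger error (limma adjusted p = 0.286) and a correlation of 0.76 with the first. Genes of the lists below are given from their brightest probe set alone. Among them Abcg1 had 3 probe sets and Acaca, Fasn, Srebf1 and Srebf2 had 2 each.

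The members were compared with one another over the same 10 centred pools. Idi1 ran with Dhcr7 (Pearson's r = 0.94, Spearman's rho = 0.89) and with Cyp51 (r = 0.93, rho = 0.92), and opposite to Fdft1 (r = -0.92, rho = -0.88). Fdft1, the enzyme that acts on the product of Fdps, ran opposite to Fdps as well (r = -0.74, rho = -0.76). All members were read from the same RNA of each pool, and the pools differed in tissue makeup and in restriction, so the values are descriptions. Of 7107 other genes, the nearest by Pearson's r were Stat2 (0.985) and Eef1akmt1 (0.982) for Idi1, Yeats4 (0.938) and Orc2 (0.933) for Fdps, Sar1b (0.988) and Acad10 (0.977) for Fdft1, Mrps14 (0.979) and Spcs1 (0.970) for Sqle, Snrpb (0.988) and Cmtm6 (0.979) for Cyp51, Cdc5l (0.972) and Gtf2ird1 (0.965) for Dhcr7, and Exoc3 (0.947) and Sec62 (0.929) for Insig1. By rank (Spearman's rho), 1 of these 14 genes was named again.

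The other enzymes of cholesterol synthesis showed no called dose slope. Of 16 listed, 12 had a probe set and 11 were tested, with 0 rising and 0 falling, beside 5.71% rising and 3.69% falling over all tested probe sets. A list of this length cannot tell 0 from those shares. The median slope was -0.090 (range -0.24 to 0.087), beside -0.11 for the 6 tested members and -0.011 for all tested probe sets. The lowest was Msmo1, the sterol-C4 oxidase that acts after Cyp51, at -0.24 ± 0.078 (limma adjusted p = 0.0719). Against the controls, Nsdhl, the dehydrogenase that acts with it, was lower by -0.56 ± 0.14 (limma adjusted p = 0.0447) and was the 1 called of 11, beside 1.6% of all tested probe sets lower, with a median difference of -0.31 over the list. Nsdhl had a signal of 47.3 to 62.5 in restricted pools at 1 month, against 75.1 in the control pool, and 51.7 to 68.3 in restricted pools at 1 week, against 94.2 in the control pool. Mvd, the mevalonate diphosphate decarboxylase just before Idi1, was too dim to be tested but read 2.99 to 6.73 in the restricted pools at 1 month, against 31.8 in the control pool, and 3.61 to 6.11 in the restricted pools at 1 week, against 21.1 in the control pool. Msmo1, Nsdhl, Mvd, Acat2 (acetoacetyl-CoA thiolase) and Mvk (mevalonate kinase) were lower in all 8 restricted pools, as were 14.8% of all tested probe sets, whereas Pmvk, Ebp, Sc5d and Tm7sf2 were lower in 2 or 3 of them. Nsdhl, Mvd and Msmo1 were singled out after their values were seen, and Nsdhl passed in 2 of 10 fits with single pools left out.

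Genes that set the activity of SREBP gave no called slope, at 0 of 7 tested, beside 9.4% of all tested probe sets. A list of this length cannot tell 0 from that share. Srebf2, the gene of SREBP-2, had a slope of -0.18 ± 0.089 (limma adjusted p = 0.212). It was below the control in all 8 restricted pools, as were 14.8% of all tested probe sets. Srebf1, the gene of SREBP-1, had a slope of 0.13 ± 0.046 (limma adjusted p = 0.0897). Srebf1 and Insig2 were above the control in all 8, as were 15.1% of all tested probe sets. Scap had a slope of 0.0099. The list median was 0.0099 as well.

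Of 12 listed uptake and intracellular handling genes, 7 were tested, 1 rose and 0 fell, with a median slope of 0.070, beside 5.71% rising and a median of -0.011 over all tested probe sets. Mylip, a ubiquitin ligase that marks lipoprotein receptors for degradation, had a slope of 0.25 ± 0.050 (limma adjusted p = 0.0145). Its signal was 79.1 in the control pool and 101.5, 93.9, 102 and 122 in the 5%, 10%, 20% and 30% CR pools at 1 month, and 86.1 in the control pool and 96.1, 111, 169 and 161 in the same order at 1 week. The receptor genes Vldlr (0.070), Lrp1 (0.079) and Scarb1 (0.094) had slopes that did not pass. The Mylip slope passed in 7 of the 10 fits with single pools left out. It was 0.23 without the 2 pools of highest pancreas marker signal and 0.22 in the 8 restricted pools alone, and passed in neither fit.

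Of 5 tested efflux and LXR genes, 1 rose and 0 fell with the dose, with a median slope of 0.064, beside the same 5.71%. Cyp27a1, the mitochondrial sterol 27-hydroxylase, had a slope of 0.27 ± 0.049 (limma adjusted p = 0.0115). Its signal was 50.7 in the control pool and 54.6, 66.2, 65.7 and 75.6 in the 5%, 10%, 20% and 30% CR pools at 1 month, and 41.0 in the control pool and 56.8, 56.3, 79.0 and 89.8 in the same order at 1 week. The Cyp27a1 slope was 0.21 without the 2 pools of highest pancreas marker signal and 0.23 in the 8 restricted pools alone, and passed in neither fit. Against the controls, Nr1h3 (the oxysterol receptor LXR alpha, 0.82 ± 0.18, limma adjusted p = 0.0258) and its target Abcg1 (a sterol exporter, 0.38 ± 0.10, limma adjusted p = 0.0483) were higher, beside 4.34% of all tested probe sets, and both were higher in all 8 restricted pools, beside 15.1%. Their differences were 0.58 and 0.34 with the lymphocyte mean as a covariate and 0.37 and 0.22 with the adipocyte mean, and did not pass. With single pools left out, Cyp27a1 passed in 9 of 10 fits, Nr1h3 in 6 and Abcg1 in 1, and the last 2 were singled out after their values were seen.

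Of the lipogenic targets of SREBP, 10 were tested, 2 rose and 0 fell with the dose, with a median slope of 0.076, again beside 5.71% of all tested probe sets rising. Acss2, a cytosolic acetyl-CoA synthetase, had a slope of 0.26 ± 0.036 (limma adjusted p = 0.00411) and Acaca, the carboxylase that makes malonyl-CoA, a slope of 0.15 ± 0.034 (limma adjusted p = 0.0217). Acss2 had a signal of 754 in the control pool and 947, 955, 1221 and 1555 in the 5%, 10%, 20% and 30% CR pools at 1 month, and 944 in the control pool and 1093, 1007, 1162 and 1488 in the same order at 1 week. With single pools left out, Acss2 passed in 10 of 10 fits and Acaca in 7. Without the 2 pools of highest pancreas marker signal the slopes were 0.29 for Acss2 and 0.16 for Acaca. In the 8 restricted pools alone they were 0.25 and 0.10, and neither gene passed in these 2 fits. Fasn and Scd were above the control in all 8 restricted pools with slopes of 0.084 and 0.069 that did not pass, while Fads1, a fatty acid desaturase, was below it in all 8, though nearly level with it at 5% CR and 1 week, with a slope of -0.17 that did not pass. The list was not of one direction: against the controls, Pnpla3, a lipid droplet protein induced by SREBP-1 in liver, was lower by -1.15 ± 0.16 (limma adjusted p = 0.00576), a value singled out after it was seen, and Acaca was higher by 0.39 ± 0.099 (limma adjusted p = 0.0445), beside 1.6% of all tested probe sets lower and 4.34% higher.

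**Figure D4:**
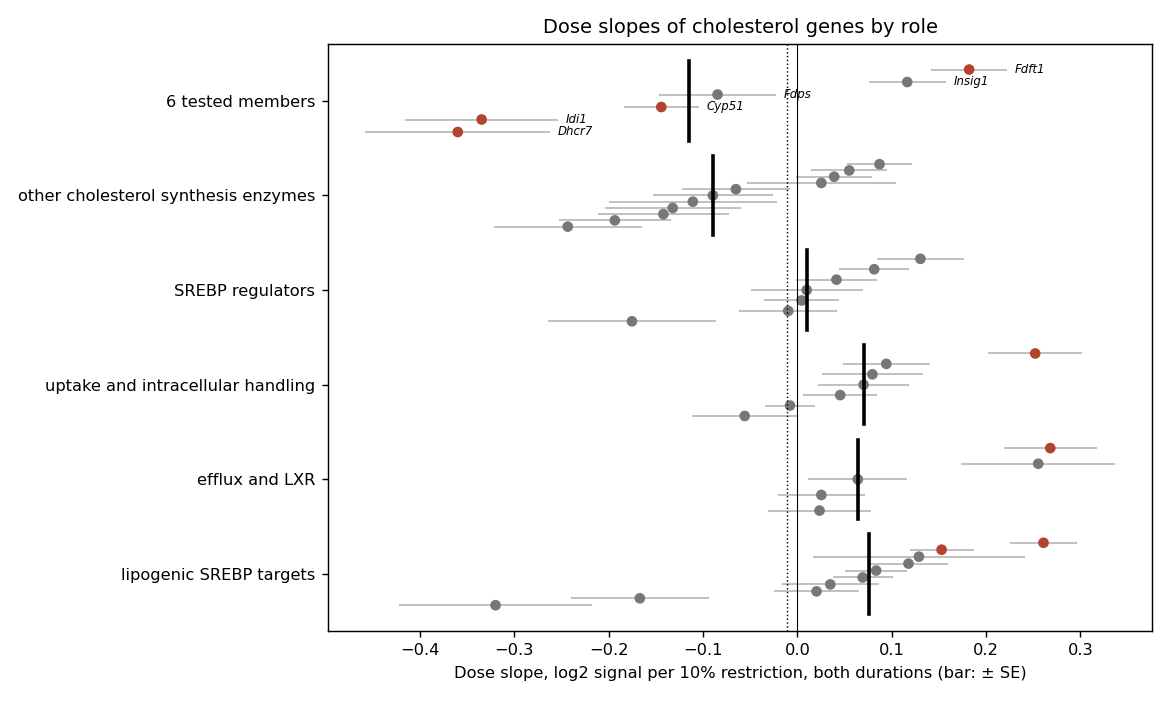
Dose slopes at both durations in log2 signal per 10% restriction (horizontal axis, bars ± SE) are plotted for each tested gene by role (vertical axis), in red where the limma adjusted p was under 0.05, with thick bars for list medians and the dotted line for the median of all tested probe sets at -0.011. The 11 other synthesis enzymes held no called gene, beside 9.4% of all tested probe sets, and the called genes of the uptake, efflux and lipogenic lists all rose.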

How the data were processed

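Intensity values were MAS5 signals that the authors deposited, on a linear scale, from RNA of 5 rats per pool and 2 chips per pool. The submitters' processing notes and the study's methods name MAS5. Trimmed mean signals were 77.2 and 110.9 for the first and second chips at 1 week and 97.4 to 97.7 at 1 month, so the sets of chips were scaled apart, and no chips of different number were compared. Of 15923 probe sets, 57 controls were left out, and 12783 of the remaining 15866 had 1 gene symbol. Signals under 1 (0.996% to 3.87% of a chip) were set to 1, log2 was taken and the chips of a pool were averaged. The 9520 probe sets left after the lowest 40% by mean log2 signal (under 22.8) were dropped were fitted with limma 3.58.1 in R 4.3.3 (lmFit, eBayes with an intensity trend, two-sided, Benjamini-Hochberg adjustment, threshold 0.05) after tests on simulated data. The number of pools limits the precision.

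Named genes were all 8 members, the genes of each list that passed the dose slope (at most 5 a list) and, for each member, the 2 genes of highest Pearson's r. Other genes of the lists named with values were picked after their values were seen. Members and lists were chosen with earlier results of these data known. Alternatives covered scaling, offset, filter, chips, pools, probe sets and marker covariates. Detection calls were not used here.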

Additional observations from a re-analysis of the deposited data

How the results depend on the processing

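Of the 4 called dose slopes, none changed sign over 25 alternatives each, and they passed in 17 (Idi1), 16 (Fdft1), 9 (Dhcr7) and 7 (Cyp51) of them. Leaving out each pool or chip number in turn, members called ran between 0 and 4 for the dose slope, with 0 without the 1-week control, the 1-week 30% CR or the 1-month control pool (255, 110 and 160 of all probe sets called), and all called between 110 and 1921. For restricted against control the same ran between 0 and 5 members (0 without either control pool) and 6 and 1980 probe sets, for the 1-week slope between 0 and 2 members, and for 1 month minus 1 week between 0 and 2. Chip numbers paired only chips scaled together: with the 20 chips, the chip number as a replicate block and the chips of a pool correlated, a fit whose degrees of freedom count technical repeats, members called were 4 for the dose slope, 3 for the 1-week slope, 5 for restricted against control and 1 for the step, and all called were 1729 for the dose slope and 1695 for restricted against control. Members called for the dose slope were 2 with no intensity trend, 2 with the mean over probe sets, 0 without the 2 pools of highest pancreas marker signal, 0 with the lymphocyte covariate, 0 in the 8 restricted pools alone and 1 with the adipocyte covariate. All called were then 15 without the pancreas marker pools, 171 with the lymphocyte covariate, 32 in the restricted pools alone and 481 with the adipocyte covariate. For restricted against control, members called were 1 with no trend, 1 with the mean over probe sets and 0 without the pancreas marker pools or with either covariate. All called were 855 with quantile normalization, 374 with no filter, 295 with no trend, 5 without the pancreas marker pools, 62 with the lymphocyte covariate, 330 with no filter and a pseudocount of 16 and 0 with the adipocyte covariate. For 1 month minus 1 week 1 member was called with quantile normalization and 1 with the adipocyte covariate. Centring each chip on its median gave 574 rising and 146 falling probe sets, against 544 and 351. Pairs of tested member and pool past the fold, which leave out Sqle, were 8 lower and 0 higher at 2-fold. They were 33 lower and 12 higher with no minimum, against 17 and 1 at 1.5-fold. Of the 14 genes of nearest pattern, 1 was also named by Spearman's rho. The Fdps slope was 0.017 in the restricted pools alone, and at 1 month 0.051 on the first chips, 0.0064 with the lymphocyte and 0.020 with the adipocyte covariate. With single pools or chips left out, the 1-month Fdps slope ran between -0.15 and 0.11 and the 1-month Dhcr7 slope between -0.47 and 0.055, the highest without the 1-month control. Restricted against control, Fdps was 0.062 with the adipocyte covariate, and Insig1 was -0.039 without the 1-month and 0.27 without the 1-week control, -0.033 with the lymphocyte and -0.072 with the adipocyte covariate. The Idi1 step was -0.32 with the adipocyte covariate. The causes were not tested. The adipocyte covariate and the setting of no filter with a pseudocount of 16 were chosen after seeing the data.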
